A study of Oryza sativa with 8 samples.

Results

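The effect of withholding nitrogen was examined in shoots of the rice variety Prasanna. The comparison rested on 4 of the 8 arrays of the study, which were chosen by their labels: 2 arrays of Prasanna seedlings kept in medium without nitrogen and 2 of Prasanna seedlings kept in medium with supplemented nitrogen. All seedlings were germinated for 7 days, grew for 10 days in Yoshida solution that held nitrogen, and were then moved to the test media. The labels call the tissue the shoot of seedlings 14 days old, and the sources used here do not give the time spent without nitrogen. The remaining 4 arrays held the same pair of treatments in the variety Varadan and entered the model as a shared estimate of the spread. Nothing in the labels says that replicate arrays came from separate plants or cultures, so the p-values measure only the spread between these samples.

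Rice takes up nitrogen as nitrate and ammonium. Nitrate is reduced to nitrite by nitrate reductase and then to ammonium by nitrite reductase, and ammonium enters amino acids through glutamine synthetase and glutamate synthase. Nitrate also acts as a signal that switches on the genes of its own uptake and reduction, and plants short of nitrogen are known to break down purines, chlorophyll and proteins and to move the released nitrogen to growing parts.

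Signals are MAS5 values on a log2 scale, on which a step of 1 is a doubling. Differences are given as no nitrogen minus supplemented nitrogen with the standard error (SE) from limma, and adjusted p-values are Benjamini-Hochberg values over all 34333 probe sets tested. Where a gene had several probe sets, the brightest was used. The arrays measured bulk shoots, in which fewer cells of a type and less RNA per cell cannot be told apart.

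The median log2 signal of the 4 Prasanna arrays ran from 5.6 to 6.01. The arrays without nitrogen were less alike than those with it. Across probe sets, Spearman's rho was 0.896 between the replicates without nitrogen and 0.940 between the supplemented replicates, and the second no-nitrogen array resembled the supplemented arrays (0.921 and 0.942) more than its own replicate. Replicates differed by 1 log2 unit or more for 34.0% of probe sets without nitrogen and 21.3% with it. Leaf markers were the brightest of the marker lists, with means of 15.95 to 16.65 in supplemented shoots for all 6 Rubisco, Rubisco activase and light-harvesting probe sets, as the shoot label says. Summed on the linear scale, they came to 252000 and 387000 without nitrogen and to 487000 and 475000 with it. The 11 root markers summed to 13600 and 13500 against 31200 and 26200, of which the 5 iron genes among them made up 12500 and 12400 against 29700 and 24900, and the silicon transporter gene SIIT1 (Lsi1) stood at 9.58 and 9.96 against 10.31 and 10.10. The 3′ minus 5′ difference of control probe sets is a measure of RNA integrity. For actin it was 3.84 on the first no-nitrogen array and 4.76 to 5.11 on the other 3. It was also lowest on that array for cyclophilin (0.74, against 1.17 to 1.48) and ubiquitin (-0.01, against 0.28 to 0.34). The glyceraldehyde-3-phosphate dehydrogenase control did not set that array apart (2.79, against 2.77 to 2.93). The ribosomal 18S control was brightest on that first array (15.49, against 13.11 to 14.18). The part of these differences in the results was not tested.

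The first no-nitrogen array also stood apart in genes of the circadian clock, the oscillator that times gene expression over the day. LHY, a morning-phase clock gene, had a signal of 7.97 on that array and of 14.82 on its replicate, with 14.69 and 15.01 on the supplemented arrays. PCL1, the rice relative of LUX ARRHYTHMO and an evening-phase gene, showed the opposite: 14.62 on the first array, 6.66 on the second, and 7.73 and 5.77 with nitrogen. The evening gene PRR1, a relative of TOC1, had 11.93 on the first array and 10.13 to 10.27 on the other 3. The same split was present in Varadan, where LHY stood at 8.56 and 14.64 without nitrogen and PCL1 at 13.71 and 7.51. The sources used here give no time of harvest, and its part in the results was not tested. The genes described most closely below are therefore given with both no-nitrogen arrays, and for those given by a difference alone the value is the mean over both.

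Of the genes with a symbol, a rule chose those that differed most between the no-nitrogen arrays while the supplemented arrays lay within 1 log2 unit of each other. Higher on the first array were the pyruvate decarboxylase gene PDC of alcoholic fermentation (10.38 and 5.4, against 1.58 and 1.47 with nitrogen), the bifunctional nuclease gene BBD1 (14.36 and 8.76, against 9.40 and 9.29) and OPR1, a reductase of the oxylipin pathway (13.05 and 8.20, against 9.48 and 8.69). The beta-expansin EXPB11, which loosens cell walls, and the auxin-related SAUR39 had the same order. Lower on the first array were the chaperone gene CLPB3 (1.13 and 9.32, against 8.14 and 9.07), the heat stress factor genes HSF24 (5.78 and 11.70, against 11.74 and 11.47) and HSF1, the sugar transporter gene SWEET2B, the kinase gene CIPK5 and the sodium transporter gene HKT1;3. In all 16 genes of this kind, the 2 no-nitrogen arrays of Varadan differed in the same direction. For NAR2.2, a gene of this kind described below, they lay close together in Varadan (9.67 and 9.52). Over all tested probe sets, 2741 had no-nitrogen arrays at least 2 log2 units apart beside supplemented arrays within 1 unit, 1429 of them higher and 1312 lower on the first array. Of these, 80.0% differed in the same direction in Varadan, against 71.5% of the 27025 probe sets whose supplemented Prasanna arrays lay within 1 unit. With no-nitrogen arrays at least 1 unit apart the share was 82.1%, and with at least 4 units it was 76.0%.

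**Figure D1:**
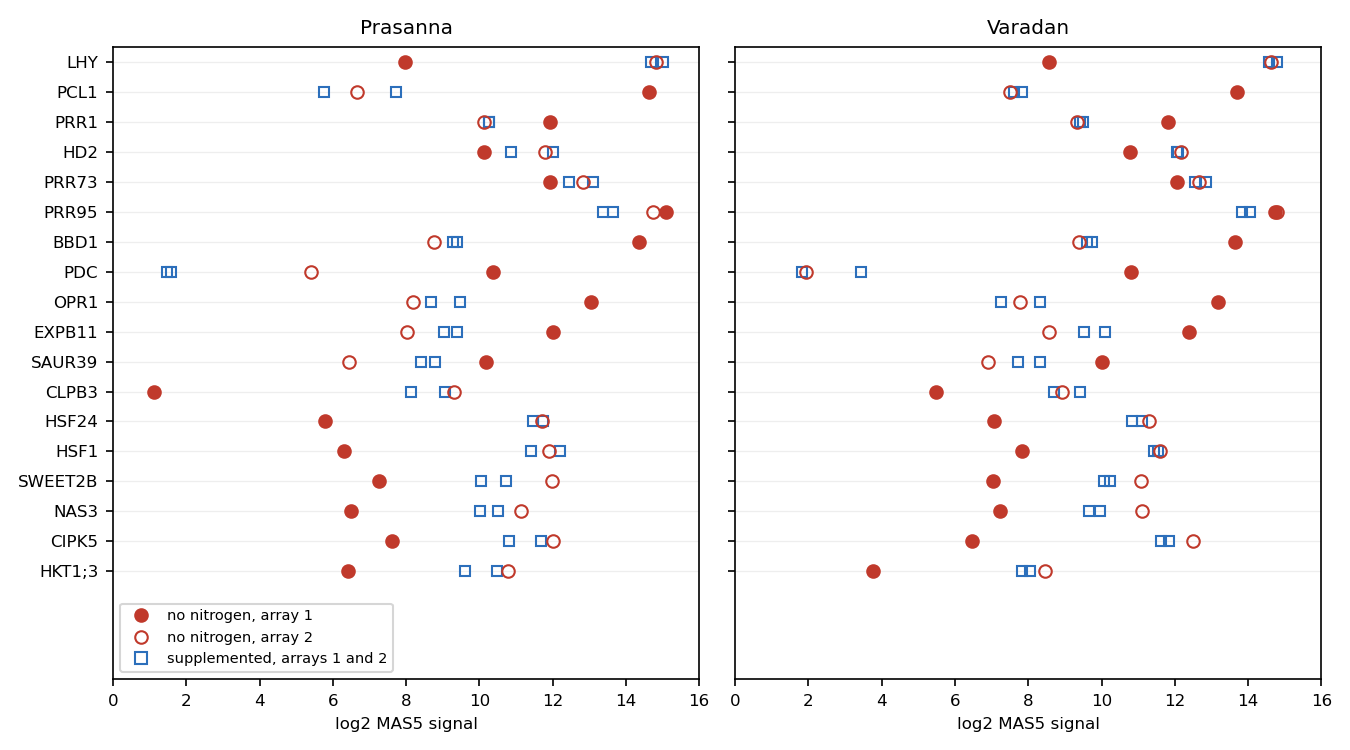
Log2 MAS5 signal of clock genes and of genes chosen for the distance between the no-nitrogen arrays, in Prasanna (left) and Varadan (right), with 1 symbol per array. For most genes the first no-nitrogen array (filled circles) of each variety lies apart from its replicate (open circles), for example at 7.97 against 14.82 for LHY in Prasanna. The open circles mostly lie among or near the supplemented arrays (squares). For PRR95 the no-nitrogen arrays lie together, at 15.10 and 14.73 in Prasanna and 14.74 and 14.80 in Varadan.

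The question of the comparison was which transcripts differ in Prasanna shoots kept without nitrogen. No probe set passed an adjusted p of 0.05 with limma (0% of 34333). The smallest adjusted p was 0.133, and 2276 probe sets (6.63%) reached an unadjusted p under 0.05, where chance would give 1717. On 1156 of these (3.37%) the signal was higher without nitrogen and on 1120 (3.26%) it was lower. The values of the no-nitrogen arrays lay wholly above those of the supplemented arrays for 17.8% of probe sets and wholly below for 17.7%. A gap of at least 1 log2 unit between the groups was present for 548 probe sets in the higher direction (1.60%) and 731 in the lower direction (2.13%). Counted as 1 probe set per gene, the background for the gene lists is 51.9% of 21601 genes with a higher mean without nitrogen and 48.1% with a lower one, 19.7% without overlap and higher, 16.6% without overlap and lower, and a median difference of 0.03.

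With the first no-nitrogen array of both varieties left out, an alternative chosen after seeing the data, 296 probe sets passed (0.862%), 52 higher (0.151%) and 244 lower (0.711%). That fit has 6 arrays and 2 residual degrees of freedom. It leaves 1 no-nitrogen array in each variety, so its spread comes from the supplemented groups alone, whose replicates had a median SD of 0.31 in Prasanna and 0.26 in Varadan, against 0.47 and 0.46 without nitrogen. The single no-nitrogen arrays are assumed to vary as little as those groups, and the arrays were left out because they stood apart, so its adjusted p-values may be too small. It is called the reduced fit below. Most of the named genes were chosen by small p-values or by array differences in these same arrays. Their passing in the reduced fit is therefore not separate support.

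Genes of nitrate reduction were lower on both arrays without nitrogen. NR1, which encodes nitrate reductase, had signals of 13.31 and 13.08 without nitrogen and of 15.76 and 15.62 with it. The difference was -2.50 ± 0.29 (SE; adjusted p = 0.148), a 5.65-fold lower signal, and -2.62 with an adjusted p of 0.00545 in the reduced fit. Os02g0770800, a locus entered in the nitrate reduction list by its identifier, stood at 8.28 and 5.89 against 12.36 and 12.91 (difference -5.55 ± 1.24, adjusted p = 0.370). Os01g0357100, another member entered that way, stood at 11.86 and 10.90 against 14.47 and 15.17 (-3.43 ± 0.43, adjusted p = 0.167). All 3 tested members of the list were lower on both no-nitrogen arrays without overlap, where 16.6% of all genes were, with a median of -3.43 against 0.03 for all genes. These 3 genes were anchors, chosen with earlier results of these data known, so their distance from all genes is a description and not a test. All 3 passed in the reduced fit, the latter pair with adjusted p-values of 0.000517 and 0.00327.

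GRXC1 encodes a glutaredoxin, a small protein of thiol redox control. It had signals of 6.71 and 8.56 without nitrogen and 13.58 and 13.09 with it (-5.70 ± 0.65, adjusted p = 0.148). NSHB2, a non-symbiotic haemoglobin that can remove nitric oxide, had 7.13 and 5.26 against 11.61 and 10.71 (-4.97 ± 0.74, adjusted p = 0.220). The gap between the nearest arrays of the groups was 4.53 for GRXC1 and 3.58 for NSHB2, and both passed in the reduced fit (adjusted p = 0.000870 and 0.00279).

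Among the 9 tested regulators of nitrogen responses, 2 were higher and 7 lower by mean, with 2 and 4 of them free of overlap and a median of -0.47. NIGT1, a repressor that nitrate induces, had signals of 4.93 and 1.34 against 8.22 and 7.19 (-4.57 ± 1.55, adjusted p = 0.628). The locus Os03g0609500 stood at 6.58 and 5.57 against 10.52 and 9.96 (-4.16 ± 0.83, adjusted p = 0.301). NLP1, a NIN-like factor that acts in nitrate signalling, was ordered the other way, at 10.94 and 11.53 against 9.91 and 9.89 (1.34 ± 0.31, adjusted p = 0.391), whereas its relatives NLP2 (8.32 and 9.26 against 9.70 and 10.06) and NLP3 (12.06 and 12.91 against 12.63 and 13.22) had lower means. In the reduced fit 4 members passed, namely NIGT1 (adjusted p = 0.0256), Os03g0609500 (0.00689), NLP1 (0.0484) and the locus Os09g0549450 (3.18 higher, adjusted p = 0.0216). The NIGT1 signal of 1.34 that this fit uses is below the mean of 4.48 required for the test.

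Nitrate transport genes did not separate the treatments in this way. All 7 tested members had higher means without nitrogen, with a median of 0.40, but only NAR2.2 lacked overlap, and its value rested on the first array. NAR2.2 and NAR2.1 encode partner proteins that high-affinity nitrate transporters need. NAR2.2 had 10.67 and 4.25 against 3.68 and 4.2 (3.52 ± 1.76, adjusted p = 0.793), and NAR2.1 had 9.60 and 7.05 against 7.91 and 4.48 (2.13 ± 1.31). In Varadan both no-nitrogen arrays of NAR2.2 (9.67 and 9.52) lay above the supplemented ones (5.85 and 7.04). The transporter gene NRT2.1 was too dim to be tested, with 7.63 and 1.95 against -1.06 and 5.48. The list median was 1.28 on the first no-nitrogen array and -0.23 on the second, relative to the supplemented mean. NRT2.3 (0.51 ± 0.81) turned to -0.25 without the first array.

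**Figure D2:**
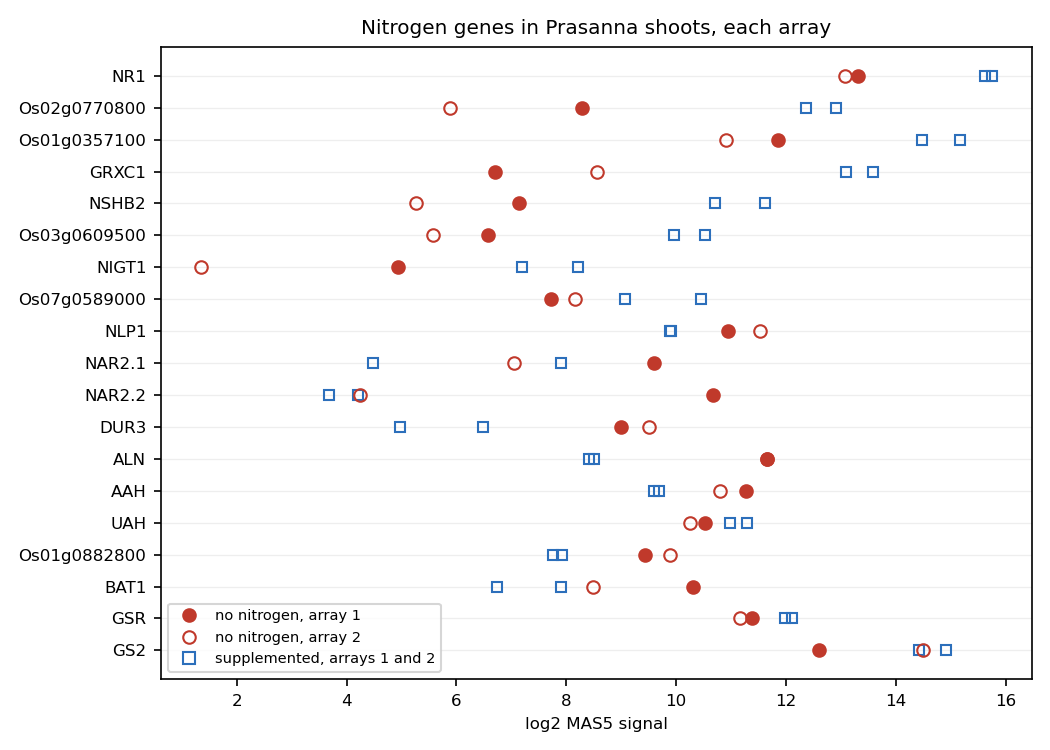
Log2 MAS5 signal of genes of nitrogen supply, regulation, recycling and assimilation on each Prasanna array, with filled and open circles for the 2 no-nitrogen arrays and squares for the supplemented arrays. NR1 lies at 13.31 and 13.08 without nitrogen against 15.76 and 15.62, ALN lies the other way at 11.65 and 11.66 against 8.42 and 8.51, and the groups overlap for NAR2.1 and GS2.

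Genes that release nitrogen from purines and urea lay mostly in the opposite direction. The urea transporter gene DUR3 had 8.99 and 9.51 without nitrogen and 6.48 and 4.97 with it (3.52 ± 0.64, adjusted p = 0.269). ALN, which encodes allantoinase, had 11.65 and 11.66 against 8.42 and 8.51 (3.19 ± 0.59, adjusted p = 0.276) and a 9.14-fold higher signal, with close replicates in both groups. It passed in the reduced fit (adjusted p = 0.0254), while DUR3 did not. The next enzyme, allantoate amidohydrolase (AAH), had 11.27 and 10.79 against 9.69 and 9.60 (1.38 ± 0.41), whereas ureidoglycolate amidohydrolase (UAH) stood at 10.53 and 10.25 against 11.29 and 10.99 (-0.75 ± 0.34). Xanthine dehydrogenase (XDH), at the head of purine breakdown, also had a lower mean, at 11.19 and 11.77 against 12.07 and 12.17. Of the 7 tested members, 5 were higher and 2 lower, all 7 without overlap, with a median of 0.45.

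Ammonium uptake and assimilation had no common direction: 11 of 20 tested members had higher and 9 lower means, with 5 and 3 free of overlap and a median of 0.11. GSR, a cytosolic glutamine synthetase, had 11.39 and 11.17 against 12.11 and 11.98 (-0.77 ± 0.25, adjusted p = 0.609), while another cytosolic enzyme, RGS28, had 13.92 and 14.60 against 13.43 and 13.40 (0.84 ± 0.45). The dim glutamine synthetase gene GLN1-3 was also higher without overlap, at 5.08 and 5.88 against 4.04 and 3.94 (1.48 ± 1.56). The plastid enzyme GS2 differed between the no-nitrogen arrays, at 12.60 and 14.50 against 14.42 and 14.92 (-1.12 ± 0.72). The ferredoxin-dependent glutamate synthase gene GLU had the same pattern, at 12.72 and 14.58 against 14.39 and 14.90. For both plastid enzymes the second array lay within the range of the supplemented arrays. The ammonium transporter gene AMT1 split as well, with 11.52 and 14.11 against 13.03 and 12.95, and AMT3-3 was higher on both arrays (6.76 and 7.46, against 6.10 and 3.99). The cytosolic and plastid groups are described here by their members alone, and no difference between them was tested. The reduced fit called 1 member, the locus Os03g0291500 (adjusted p = 0.0389), whose no-nitrogen signals of 12.12 and 5.97 lay on either side of the supplemented ones (10.97 and 9.33).

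All 3 tested amino acid carriers lay higher on both no-nitrogen arrays, with a median of 1.83. The locus Os01g0882800 had 9.44 and 9.88 against 7.75 and 7.92 (1.83 ± 0.34, adjusted p = 0.269). BAT1 had 10.31 and 8.48 against 7.91 and 6.74, and its 4 probe sets gave differences of 1.11 to 2.24. The proline transporter gene PROT had the smallest difference (0.42 ± 0.29). None of the 3 passed in the reduced fit. Autophagy genes, whose products deliver cell contents for breakdown, had small differences: 6 of 7 had higher means with a median of 0.23, and APG8B had 12.55 and 12.47 against 11.92 and 11.99.

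Phosphate starvation genes were mixed. SPX2, whose product senses phosphate status, had 11.29 and 11.66 against 9.35 and 9.66 (1.97 ± 0.37, adjusted p = 0.284, and adjusted p = 0.0374 in the reduced fit). MGD3, which makes the galactolipid that replaces phospholipids when phosphate is short, had 10.92 and 11.49 against 9.40 and 9.72 (1.65 ± 0.40, adjusted p = 0.429). Their relatives SPX1 (0.49 ± 0.31), SPX4 (0.24 ± 0.31) and MGD2 (-0.71 ± 1.0) and the regulator PHR2 (-0.03 ± 0.30) differed by less. Of 18 tested members, 12 had higher and 6 lower means, 4 and 0 without overlap, and the median was 0.39.

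Chlorophyll synthesis lay lower without nitrogen and chlorophyll breakdown higher. Of 16 tested synthesis genes, 13 had lower means, 8 of them without overlap, and 3 had higher means, with overlap, for a median of -0.80. CHL1, a subunit of the magnesium chelatase that commits porphyrins to chlorophyll, had 10.26 and 10.34 against 11.79 and 12.17 (-1.68 ± 0.29, adjusted p = 0.269). It was the member of this list that passed in the reduced fit (adjusted p = 0.0449). UPD2, a uroporphyrinogen decarboxylase (12.99 and 12.72 against 13.70 and 13.99), the protochlorophyllide reductase PORA (9.77 and 9.09 against 10.32 and 10.70) and the divinyl reductase DVR (9.01 and 9.53 against 10.43 and 10.13) were also lower on both arrays. Chlorophyllide a oxygenase (CAO), which makes chlorophyll b, had 11.06 and 13.28 against 13.66 and 13.93, so most of its difference of -1.63 ± 0.95 came from the first array. The list median was -0.84 on the first array and -0.55 on the second.

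Of the 8 breakdown and senescence genes, 7 had higher means and 5 were higher without overlap, with a median of 0.78. NYC1, the chlorophyll b reductase of leaf yellowing, had 11.35 and 11.94 against 10.35 and 9.57 (1.68 ± 0.36, adjusted p = 0.337). The stay-green gene SGR, whose product removes magnesium from chlorophyll, had 13.50 and 13.51 against 13.05 and 11.22 (1.37 ± 0.55). The locus Os03g0327800 had 11.50 and 11.89 against 10.83 and 10.21 (1.17 ± 0.37). This list was farther from the supplemented level on the second array than on the first, with medians of 1.26 and 0.42, and none of its members passed in the reduced fit.

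**Figure D3:**
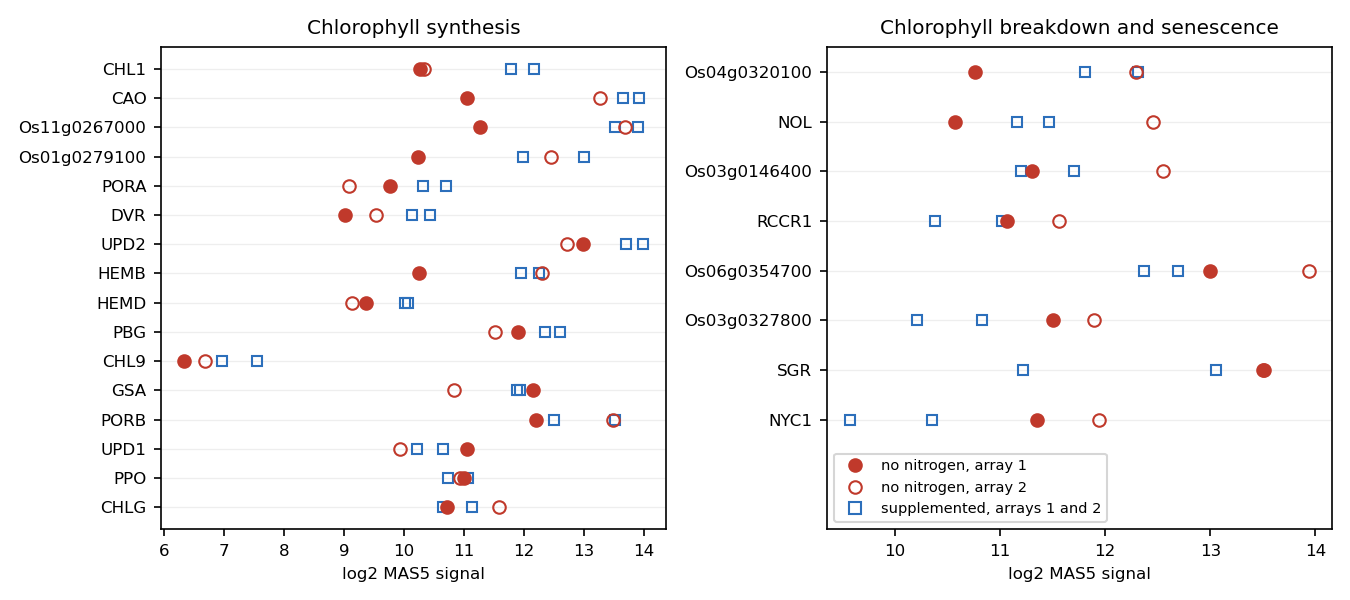
Log2 MAS5 signal of the 16 genes of chlorophyll synthesis (left) and the 8 of breakdown and senescence (right) on each Prasanna array, in order of their mean difference. CHL1 lies at 10.26 and 10.34 without nitrogen (circles) against 11.79 and 12.17 with it (squares), NYC1 at 11.35 and 11.94 against 10.35 and 9.57, and for CAO and Os11g0267000 the first array (filled) lies apart from the other 3.

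Photosynthesis genes had lower means, mostly through the first array. In the light reactions 8 of 10 members were lower, 6 without overlap, with a median of -0.39 that was -0.51 on the first array and -0.10 on the second. In carbon fixation and photorespiration 9 of 11 were lower, 7 without overlap, with a median of -0.68 that was -1.08 and -0.21. Rubisco activase (RA), which frees Rubisco of inhibitors, had 13.41 and 16.36 against 16.61 and 16.58. The Rubisco small subunit locus RBCS had 15.04 and 15.84 against 16.21 and 16.02, and the list member Os12g0292400 had 14.84 and 15.46 against 16.23 and 16.29 (-1.12 ± 0.34, adjusted p = 0.566). Glycolate oxidase genes were split: GOX had a difference of -1.45 ± 0.66, while GLO3 had 11.19 and 10.81 against 9.81 and 9.67 (1.26 ± 0.43). No member of either list passed in the reduced fit.

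Dehydrin and late embryogenesis abundant (LEA) proteins protect cells from water loss and respond to abscisic acid. RAB16C had 9.41 and 7.68 without nitrogen against 16.04 and 13.52 with it (-6.23 ± 1.0, adjusted p = 0.238), and its 3 probe sets gave differences of -6.23 to -1.06. LEA19 had 9.22 and 7.39 against 14.68 and 12.89 (-5.48 ± 1.14, adjusted p = 0.330), and LEA1 had 10.05 and 6.72 against 13.17 and 12.38 (-4.39 ± 1.18). BURP2, named for its BURP domain, had 9.44 and 10.49 against 13.48 and 13.96 (-3.75 ± 0.52, adjusted p = 0.193), with -1.40 on its other probe set. These 4 passed in the reduced fit, with adjusted p-values of 0.0185 for RAB16C, 0.00944 for LEA19, 0.000870 for LEA1 and 0.00647 for BURP2. RAB16B (8.52 and 5.95 against 13.74 and 11.01) and RAB16D (3.79 and 3.5 against 9.33 and 5.92) were also lower on both arrays. Other members did not share it: the dehydrin LIP9 (-0.12 ± 1.02), the abscisic acid receptor PYL5 (0.27 ± 0.37) and BURP3 (0.81 ± 0.30). Over the list, 6 of 14 tested genes had higher and 8 lower means, 2 and 6 without overlap, with a median of -1.72. P5CS1, which catalyses the first step of proline synthesis, had 10.47 and 11.56 against 12.99 and 13.10 (-2.03 ± 0.37, adjusted p = 0.269, and adjusted p = 0.0386 in the reduced fit).

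Genes of iron uptake were among the lower ones, although the iron and metal list as a whole was balanced. YSL15, an uptake transporter for iron bound to phytosiderophore, had 6.58 and 6.01 against 9.89 and 9.93 (-3.62 ± 0.82, adjusted p = 0.379). Nramp1, a transporter of iron and other metals, had 12.02 and 10.04 against 13.60 and 14.54 (-3.04 ± 0.63, adjusted p = 0.333). YSL2, which carries iron and manganese in the phloem, had 11.52 and 10.31 against 12.79 and 13.89 (-2.42 ± 0.54), and IRO3, a regulator of the iron response, had 11.52 and 10.68 against 12.35 and 12.94 (-1.55 ± 0.36). For each of these, every no-nitrogen array lay below every supplemented one. NAS1 and NAS2 make nicotianamine, the metal chelator from which phytosiderophores are built. NAS1 had 10.84 and 4.17 against 13.54 and 13.37 (-5.95 ± 2.06, adjusted p = 0.639), and NAS2 had 10.06 and 5.61 against 12.53 and 11.86 (-4.36 ± 1.42, adjusted p = 0.609). Their distance from the supplemented arrays was larger on the second array, whereas NAS3 stood at 6.5 and 11.14 against 10.02 and 10.50.

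Not every iron gene followed. The phytosiderophore exporter tom1 had 13.17 and 13.56 against 13.39 and 13.21, and the iron transporter IRT1 had 7.96 and 7.48 against 7.30 and 6.91. Among metallothioneins, small metal-binding proteins, MT4A had 12.68 and 12.75 against 15.96 and 15.00 (-2.77 ± 0.46, adjusted p = 0.243), while MT-2 had 14.08 and 13.84 against 12.94 and 13.06 (0.96 ± 0.24). Of 48 tested members, 24 had higher and 24 lower means, 9 and 15 of them without overlap, with a median of -0.06. In the reduced fit the differences were -3.9 for YSL15, -4.03 for Nramp1, -2.73 for MT4A and -1.97 for IRO3. They were -9.28 for NAS1 and -6.58 for NAS2. NAS1 and NAS2 were named because their first no-nitrogen array lay far above the second. This fit leaves the first array out, so their larger distance there follows from that choice and is no added support. The NAS1 signal of 4.17 that this fit uses is below the required mean of 4.48.

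Type-A response regulators, which cytokinin induces and which dampen its signal, included several with lower signals on both no-nitrogen arrays. RR9 had 8.80 and 7.94 against 11.44 and 10.45 (-2.57 ± 0.43, adjusted p = 0.243). RR4 had 9.90 and 9.09 against 10.62 and 10.52 (-1.07 ± 0.33), and RR2 had 7.17 and 8.04 against 9.43 and 9.13 (-1.68 ± 0.58). CKX5, a cytokinin oxidase that degrades the hormone, had the opposite order, at 9.81 and 7.99 against 6.98 and 6.41 (2.21 ± 0.83). The activating enzymes of the LOG family showed no common direction. Of 24 tested members, 10 had higher and 14 lower means, 2 and 6 without overlap, with a median of -0.12. That median is close to the 0.03 of all genes, of which 48.1% had lower means and 16.6% were lower without overlap. The lower signals are therefore a description of the regulators named, not of the list. RR9 passed in the reduced fit (adjusted p = 0.0284).

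Cell wall genes leaned upwards: 45 of 65 tested members had higher means, 23 of them without overlap, and 5 were lower without overlap, with a median of 0.40. CESA3, CESA6 and CESA8, subunits of cellulose synthase, had differences of 0.99 ± 0.25, 1.08 ± 0.29 and 1.01 ± 0.25. The signals were 13.86 and 13.87 against 12.74 and 13.01 for CESA3, 12.13 and 12.04 against 10.91 and 11.11 for CESA6, and 12.76 and 12.56 against 11.53 and 11.77 for CESA8. TBL11, of a family of wall acetyltransferases, had 10.15 and 10.41 against 9.17 and 8.75 (1.32 ± 0.29, adjusted p = 0.344). Phenylpropanoid genes, which supply lignin and flavonoids, had 20 of 27 higher means, 12 and 3 without overlap, and a median of 0.67. Among them the 4-coumarate CoA ligase 4CL3 had 11.30 and 11.13 against 10.36 and 9.92 (1.08 ± 0.28), although its 3 probe sets ran from 0.01 to 1.08. Cinnamyl alcohol dehydrogenase (CAD) had a difference of 1.23 ± 0.47 and CAD9 one of -3.12 ± 1.22. No tested member of the cell wall list passed in the reduced fit. Of the phenylpropanoid list 1 member passed, in the lower direction: CAD8C, at 12.75 and 9.33 on either side of a supplemented mean of 10.96, was -1.64 in the reduced fit (adjusted p = 0.0375) and 0.08 ± 1.02 over all arrays.

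Jasmonate genes had 26 of 31 higher means, 13 without overlap and 3 lower without overlap, with a median of 0.58. That median was 1.20 on the first no-nitrogen array and 0.20 on the second. EG2, a JAZ repressor of jasmonate signalling, had 13.77 and 13.61 against 12.78 and 12.91 (0.84 ± 0.25, adjusted p = 0.530). JAZ11 showed the split of the arrays, at 13.71 and 11.09 against 11.87 and 10.15. The lipoxygenase genes LOX8 (9.81 and 7.93 against 11.06 and 10.15) and LOX9 (9.06 and 9.1 against 11.04 and 10.05) were lower on both arrays, and LOX8 had an adjusted p of 0.0343 in the reduced fit.

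Aquaporins, the water channels of plasma membrane (PIP) and vacuole (TIP), had 17 of 26 lower means, 14 without overlap and 5 higher without overlap, with a median of -0.59. PIP2-4 had 5.24 and 9.52 against 11.84 and 12.13 (-4.61 ± 1.56, and -2.46 with an adjusted p of 0.0185 in the reduced fit), and PIP2-5 had 7.64 and 10.15 against 11.39 and 11.34. Most of the distance was again on the first array, and the list median was -1.01 there and -0.25 on the second. TIP2-2 had instead 14.31 and 13.01 against 15.47 and 15.41 (-1.78 ± 0.44, adjusted p = 0.429, and adjusted p = 0.00471 in the reduced fit). PIP2-7 (14.91 and 14.45 against 12.75 and 13.60) and TIP4-2 (8.79 and 9.49 against 6.38 and 7.17) were higher on both arrays.

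**Figure D4:**
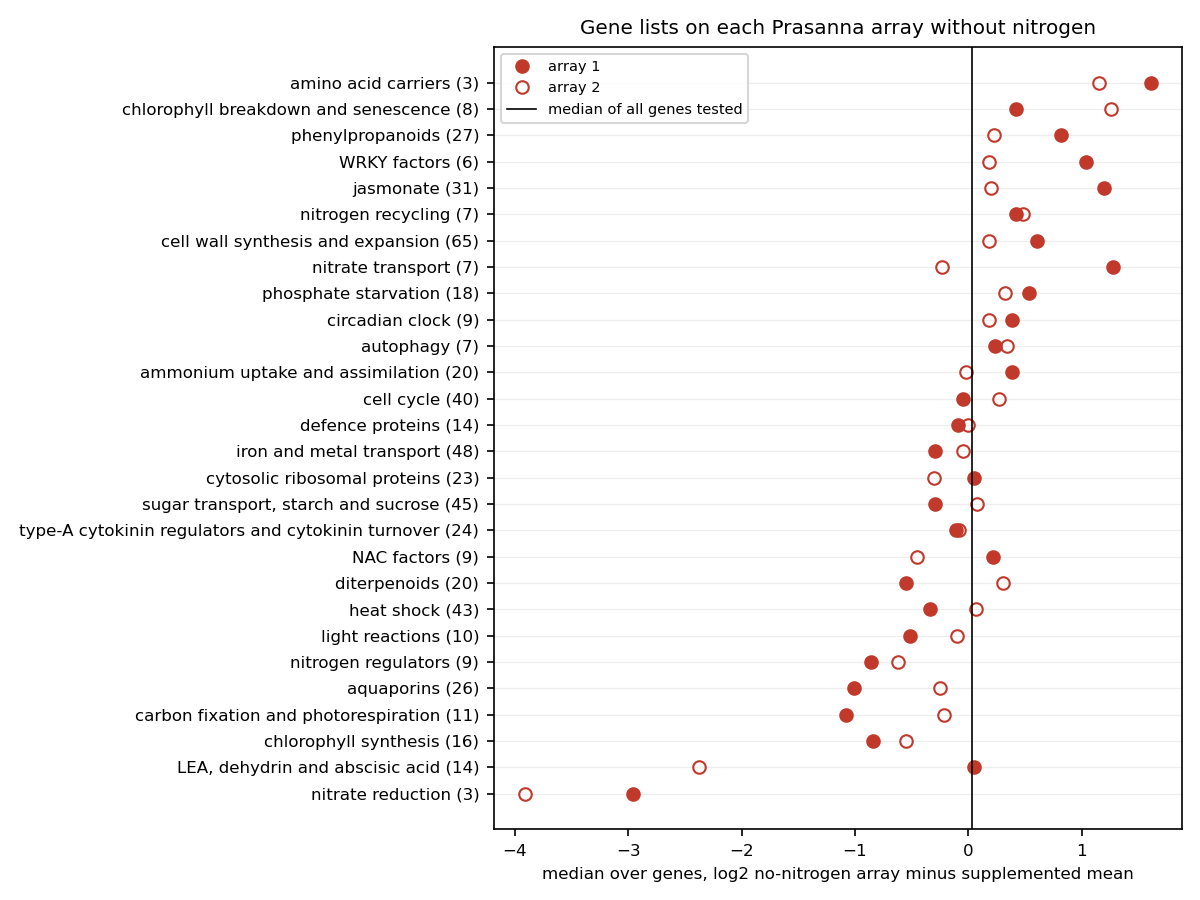
Median over each gene list (number of tested genes in brackets) of the log2 difference between 1 Prasanna array without nitrogen and the mean of the supplemented arrays, with array 1 filled, array 2 open and the median of all genes as the line. The arrays lie on the same side for nitrate reduction (-2.96 and -3.91) and chlorophyll synthesis (-0.84 and -0.55), and they are far apart for jasmonate (1.20 and 0.20), nitrate transport (1.28 and -0.23) and LEA genes (0.05 and -2.38).

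SWEET3A was the sugar gene farthest from its supplemented level. This sugar transporter gene had 7.20 and 8.80 without nitrogen and 2.84 and 2.36 with it (5.39 ± 0.93, adjusted p = 0.266). The supplemented values lie below the mean signal of 4.48 required for the test, so the size of the difference is poorly set. The alpha-amylase gene AMY1A had 4.93 and 3.15 against 6.79 and 7.28 (-3.0 ± 0.87). Over sugar transport, starch and sucrose, 19 of 45 members had higher and 26 lower means, 7 and 10 without overlap, with a median of -0.07. In the reduced fit 2 members passed, the starch synthase gene SS1 in the higher direction (9.05 and 12.22 against 10.10 and 10.37, adjusted p = 0.0427) and the sucrose synthase gene SUS4 in the lower (10.62 and 9.42 against 11.33 and 11.25, adjusted p = 0.029).

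Heat shock genes showed the split of the no-nitrogen arrays rather than a common direction. HSP82, a chaperone of the HSP90 family, had 11.96 and 15.02 against 15.05 and 15.05, and the small heat shock gene HSP24.1 had 7.31 and 10.85 against 12.67 and 12.11 (-3.31 ± 1.30). Of 43 members, 16 had higher and 27 lower means, 4 and 8 without overlap, and the median was -0.17. All 6 tested WRKY factors had higher means, with a median of 0.61, but none was free of overlap. NAC factors (9 tested, median -0.12), cell cycle genes (40, 0.09), defence proteins (14, 0.04), diterpenoid genes (20, -0.12) and cytosolic ribosomal proteins (23, -0.06) had medians close to that of all genes (0.03). Their counts without overlap, higher and lower, were 2 and 1, 10 and 2, 3 and 4, 3 and 3, and 1 and 7 in that order. The diterpenoid median was -0.55 on the first no-nitrogen array and 0.31 on the second. Of the 23 ribosomal protein genes, 22 were higher on the first no-nitrogen array than on the second. Among the defence proteins the chitinase gene Cht2 had 11.91 and 10.39 against 14.89 and 13.56 (-3.08 ± 0.98), while its 3 probe sets ran from -3.08 to 0.62, and the one used had an adjusted p of 0.0222 in the reduced fit. Also lower in the reduced fit were the ribosomal protein gene rpl5, at 11.19 and 9.81 against 11.44 and 11.69 (adjusted p = 0.0439), and RNB5 of the heat shock list, at 10.01 and 10.93 against 12.82 and 12.69 (adjusted p = 0.0244).

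Several of the genes with the smallest p-values fell in none of the lists. HOX4, a homeodomain-leucine zipper factor, had 11.74 and 11.61 against 10.10 and 10.29 (1.48 ± 0.27, adjusted p = 0.269). XBOS31, a ubiquitin ligase, had 10.84 and 10.82 against 8.93 and 8.97 (1.88 ± 0.34, adjusted p = 0.269, and 0.0408 in the reduced fit), and the auxin response factor ARF1 had 10.27 and 10.35 against 7.97 and 8.75 (1.95 ± 0.36, adjusted p = 0.269). For these 3 genes the replicates without nitrogen lay closer to each other than to any supplemented array. AC7 (14.91 and 14.94 against 13.83 and 13.68) and SAP9, a zinc finger protein of stress responses (13.77 and 13.16 against 12.14 and 12.23), were also higher on both arrays. PRR95, which is a member of the circadian clock list, had 15.10 and 14.73 against 13.37 and 13.66 (1.40 ± 0.27, adjusted p = 0.284), and here, unlike in LHY and PCL1, the no-nitrogen arrays lay together. Of the 9 tested clock genes, 5 had higher and 4 lower means, 3 and 0 without overlap, with a median of 0.38.

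The smallest adjusted p belonged to a locus without a symbol. Os06g0473000 had 2.67 and 4.34 without nitrogen and 10.87 and 11.35 with it (-7.61 ± 0.62, adjusted p = 0.133), with both no-nitrogen signals below the mean of 4.48 required for the test. Os12g0628600 had 7.69 and 8.06 against 13.81 and 12.63 (-5.35 ± 0.49, adjusted p = 0.148). Higher without nitrogen were Os01g0717700, at 13.84 and 13.49 against 11.05 and 11.01 (2.63 ± 0.30, adjusted p = 0.148, with its 3 probe sets between 2.35 and 2.63), and Os02g0554100 (2.33 ± 0.32, adjusted p = 0.193). All 4 passed in the reduced fit, with adjusted p-values of 0.000870 for Os06g0473000, 0.00471 for Os12g0628600, 0.00807 for Os01g0717700 and 0.0406 for Os02g0554100.

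Varadan shoots were used to ask whether any of this was particular to Prasanna. The difference between the varieties' nitrogen effects passed an adjusted p of 0.05 for no probe set with limma (0% of 34333). An unadjusted p under 0.05 was reached by 714 probe sets (2.08%), where chance would give 1717. The split of the no-nitrogen arrays was partly shared by the varieties (correlation of replicate differences 0.46). The shared part widens the spread but cancels in this difference, so the test may be too strict. That no probe set passed therefore says little about what is particular to Prasanna. All 34 tested genes named as nitrogen anchors or for the smallest p-values differed in the same direction in Varadan, 32 of them without overlap. The anchors were chosen with earlier results of these data known, and the Varadan arrays enter the spread behind the p-values. The shared direction of these genes is therefore not separate support. Most of these genes were picked for small p-values, and of the 2276 probe sets with an unadjusted p under 0.05 in Prasanna, 87.2% had the same sign in Varadan and 67.6% the same sign without overlap, against 66.7% and 32.0% of all probe sets. NR1 had 13.01 and 13.55 against 16.29 and 16.0 there, and GRXC1 had 8.56 and 7.26 against 12.87 and 12.81. Of the 1279 probe sets with a gap of at least 1 log2 unit in Prasanna, 76.1% had the same sign in Varadan. The varieties share the spread estimate of 1 fit and no control arrays.

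Some genes lay far apart in the varieties, without passing that test. RAB16C had 12.24 and 10.15 against 12.46 and 12.79 in Varadan, a difference of effects (Varadan minus Prasanna) of 4.8 ± 1.41 (adjusted p = 1.0). The locus Os12g0628600 had 12.93 and 11.82 against 15.09 and 14.87 in Varadan. It was lower there by 2.60, against 5.35 in Prasanna, a difference of effects of 2.74 ± 0.7. SWEET3A had 5.20 and 6.87 against 5.53 and 4.50, with overlap, and a difference of effects of -4.38 ± 1.32 (adjusted p = 1.0). For DUR3 the Varadan values were 8.75 and 9.83 against 3.41 and 3.17, for a difference of effects of 2.48 ± 0.90 (adjusted p = 1.0). YSL2 was dim in Varadan under both treatments, at 6.51 and 6.43 against 6.74 and 5.92, where Prasanna had 11.52 and 10.31 against 12.79 and 13.89 (difference of effects 2.56 ± 0.77, adjusted p = 1.0).

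**Figure D5:**
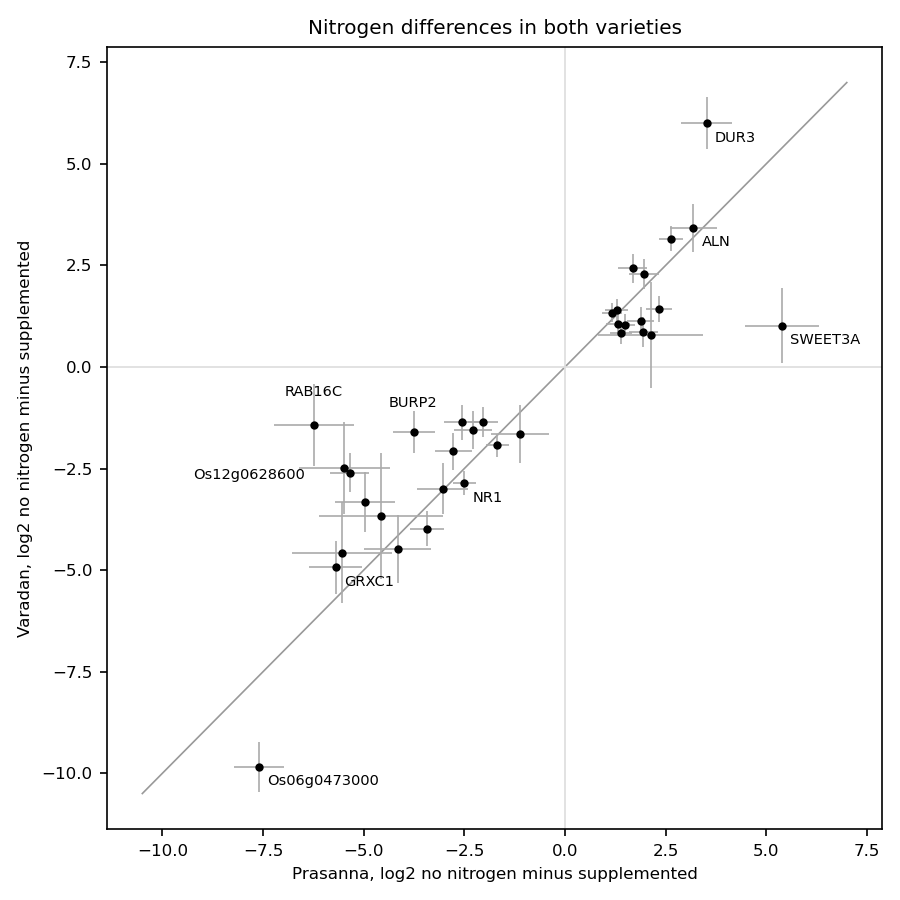
Log2 difference, no nitrogen minus supplemented nitrogen, of the 34 tested anchor and smallest-p genes in Prasanna (x axis) and Varadan (y axis), with bars for 1 SE of the fit and the line of equal differences. NR1 (-2.50 and -2.86) and ALN (3.19 and 3.43) lie near the line, and SWEET3A (5.39 and 1.02), RAB16C (-6.23 and -1.43) and DUR3 (3.52 and 6.0) lie away from it, although no difference between the varieties passed.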

How the data were processed

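Transcript levels were measured on 8 Affymetrix rice arrays, 2 per group, of which 4 hold Prasanna shoots. Signals were made with MAS5 (version not stated), per the submitters' processing notes. One deposited table gives them as log2 values for 57381 probe sets, and the deposited series matrix gives linear intensity values that are equal to within 3e-08 on the log2 scale. Precision depends on the number of arrays. Sums are given on the linear scale, on which the trimmed mean (2% at each end) was 500.0 on every array.

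After 187 control probe sets were left out, the 34333 probe sets whose mean log2 reached the 40th percentile (4.48) were kept for testing. Using limma 3.58.1 under R 4.3.3, group means were estimated over the 8 arrays together (lmFit, eBayes with trend, 4 residual degrees of freedom). Probe sets were named through the platform annotation and a RefSeq gene table: 34860 map to 1 gene, 567 to several and 21767 to none, and those with several were left unnamed. Of 25857 genes, 22577 were found in RefSeq and 2688 have a symbol. The script was tested on simulated data.

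Genes were named by rule: anchors of nitrogen supply, the 12 genes with a symbol and the smallest p in each direction among those without overlap and with a group mean above the median of the tested probe sets, up to 4 tested members of each of 28 lists with the smallest p, the 8 genes in each direction whose no-nitrogen arrays differed most, and 2 loci without a symbol in each direction. SIIT1, tom1, IRT1, IRO3, MT-2, the remaining list members and YSL2's level in Varadan were chosen after their values were seen. The members, lists and rules were chosen with earlier results of these data known. Alternatives covered the filter, normalization, offset, variance trend, array weights, the Prasanna arrays alone, the replicate block, the series matrix and leaving out each array.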

Additional observations from a re-analysis of the deposited data

Results flagged for a closer look

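For 3 named genes all Prasanna arrays lay in one direction and all Varadan arrays in the other. NAC010, a NAC transcription factor, had no-nitrogen signals of 5.89 and 1.86 and supplemented signals of 7.44 and 5.94 in Prasanna, and had 5.26 and 5.09 against 4.58 and 4.71 in Varadan, and its nitrogen effect was higher in Varadan by 3.35 ± 1.91 (SE; limma, adjusted p = 1.0). TBL3, of the wall acetyltransferase family, stood at 6.51 and 5.69 against 3.28 and 2.02 in Prasanna and at 5.25 and 5.71 against 6.42 and 5.76 in Varadan, a difference of effects of -4.06 ± 1.22 (adjusted p = 1.0). The lipoxygenase gene LOX8 stood at 9.81 and 7.93 against 11.06 and 10.15 in Prasanna and at 11.92 and 11.15 against 10.50 and 10.59 in Varadan, a difference of 2.73 ± 0.89 (adjusted p = 1.0). The test of the difference passed for none of them. The supplemented TBL3 signals and the second no-nitrogen NAC010 signal in Prasanna lie below the mean of 4.48 required for the test. The nearest Varadan arrays of TBL3 are 5.71 and 5.76, and the nearest Prasanna arrays of NAC010 are 5.89 and 5.94. Neither the sizes nor the opposite directions of TBL3 and NAC010 are therefore well set.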

How the results depend on the processing

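The count of probe sets that passed for the nitrogen effect in Prasanna was 0 under the filter, normalization, trend, weighting, Prasanna-only and series matrix alternatives. It was 1 (Os06g0473000) when 50 was added to the linear signal before log2, 0 to 5 when each array was left out in turn, with the 5 without either the first or the second no-nitrogen array of Varadan, and 296 without the first no-nitrogen array of both varieties, where the supplemented groups alone set the spread. The replicate block gave 0 as well, but narrowly: its smallest adjusted p with limma was 0.0503, against 0.133 in the main fit. It had 2884 probe sets with an unadjusted p under 0.05, against 2276. The first and second no-nitrogen arrays differed alike in both varieties (correlation of replicate differences 0.46). The correlation was 0.109 between the Prasanna groups compared and -0.0388 to 0.0949 for the other pairs of groups, and the labels tie the numbers to no shared batch, so they were not taken as pairs. The count for the difference between the varieties was 0 under every alternative run. Directions turned for genes near 0 or resting on 1 array, and the cause was not tested. Without the first Prasanna no-nitrogen array, alone or together with that of Varadan, WRKY71 went to -0.32, CYCA2-1 to 0.01, PCL1 to -0.10, PSAG to 0.02 and NRT2.3 to -0.25. Without the second supplemented Prasanna array XB10, WRKY51 and NRT2.3 turned, and without the second no-nitrogen Prasanna array NAC077 did. With each array left out in turn, log2 differences ran from -1.4 to 0.08 for NAC077, -0.11 to 1.38 for XB10, -0.08 to 1.23 for WRKY51, -0.32 to 1.91 for WRKY71, -1.1 to 0.01 for CYCA2-1, -0.10 to 7.87 for PCL1, -3.23 to 0.02 for PSAG and -0.38 to 1.41 for NRT2.3. With 2 arrays a group, the dim signals limit what can be told of SWEET3A, NIGT1, NAR2.2, NAS1, TBL3, NAC010, RAB16D, AMY1A, CAD9 and Os06g0473000.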
